A study of Mus musculus with 8 samples.

Results

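Genes known as direct targets of canonical Wnt signalling were followed in a pair of mouse T cell leukemia lines, with and without the recombinase Cre. They are Axin2, Nkd1, Tnfrsf19, Apcdd1, Ccn4 (formerly Wisp1), Wif1, Znrf3, Rnf43, Notum and Fzd7, and every probe set that the platform annotation assigns to them was kept, which gave 24 of 45037 probe sets and 10 of 18193 named genes. The study used 8 Affymetrix arrays, 2 for each of 4 groups. The E2a-/- line lacks E2a, from which the transcription factors E12 and E47 are made, and carries unmodified Lef1. The E2a-/-Lef1F/F line, called the Lef1F/F line below, lacks E2a too, and both of its Lef1 copies have loxP sites on either side of its DNA binding domain sequence. Both are on the FVB/NJ strain, and the study's methods derive such lines from thymic cells of moribund mice kept in culture. The labels give no age or sex. Each line was infected with the retrovirus MigR1, which produces GFP, or with MigR1-Cre, which also produces Cre. GFP+ cells were sorted after 72 h, so all 4 groups share the loss of E2a, the infection and the sort. Each genotype was 1 line, and genotype and line cannot be told apart. The labels do not say that the 2 arrays of a group came from separate cultures, so the spread behind each p-value is the one between these samples and may be technical only.

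In the canonical Wnt pathway, a Wnt ligand binds a Frizzled receptor and an LRP coreceptor on the cell surface, which stops a complex around Axin and APC from destroying beta-catenin. Beta-catenin then enters the nucleus and activates genes together with DNA binding proteins of the TCF/LEF family, of which LEF1 is a member. Many of the genes switched on this way feed back on the pathway. Axin2 is a scaffold of the destruction complex and Nkd1 binds Dishevelled inside the cell, while the ubiquitin ligases Znrf3 and Rnf43 remove Frizzled from the surface. Wif1 binds Wnt ligands outside the cell, Notum is a secreted enzyme that removes their lipid, and Apcdd1 is a membrane inhibitor. Fzd7 is a Frizzled receptor, Tnfrsf19 (also called Troy) a receptor of the TNF receptor family, and Ccn4 a secreted matricellular protein. TCF1 and LEF1 act in early T cell development, and they also act on genes without beta-catenin.

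Values are intensities on a linear scale after RMA, which makes the distributions of all arrays alike. Per array the median was 88.9 to 91.0, and with 2 arrays a group the precision is limited. Lef1 itself had intensities of 6918 and 6126 in the Lef1F/F MigR1 arrays and 1903 and 1678 in the Lef1F/F MigR1-Cre arrays at its brighter probe set, and between 3008 and 3416 in the E2a-/- arrays. For 2 of the groups, Lef1F/F with MigR1 and E2a-/- with MigR1-Cre, a vector field of the labels contradicts the sample titles, and the titles were followed. T cell markers were bright, with 8 of 9 above 180, which is about 2 times the median, while 0 of 5 B cell and 0 of 8 myeloid markers were. Of other lists, 3 of 7 natural killer and innate lymphoid markers (Gata3, Il7r and Rora, which T cells can express too), 2 of 5 erythroid markers (Tfrc and Epor) and 2 of 13 stromal, endothelial and epithelial markers (Col1a2 and Pecam1) were above 180. In the Lef1F/F line the arrays numbered 1 of both vectors were more alike (r = 0.9975 across probe sets), as were the arrays numbered 2 (0.9975), than arrays of the same vector (0.9945 and 0.9943), so differences within these array pairs are given beside the group differences. As a scale for low values, 28 genes of unrelated tissues such as liver, retina and pituitary had mean intensities from 47.7 to 149. Their highest value in a single array was 160. The brightest probe sets of Axin2, Apcdd1, Znrf3 and Fzd7 lay above the range of these means in all 8 arrays. Those of Nkd1, Tnfrsf19 and Ccn4 did so in some arrays, and those of Wif1, Rnf43 and Notum in 0. RMA compresses differences between low intensities, so a log2 difference may be understated there.

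**Figure D1:**
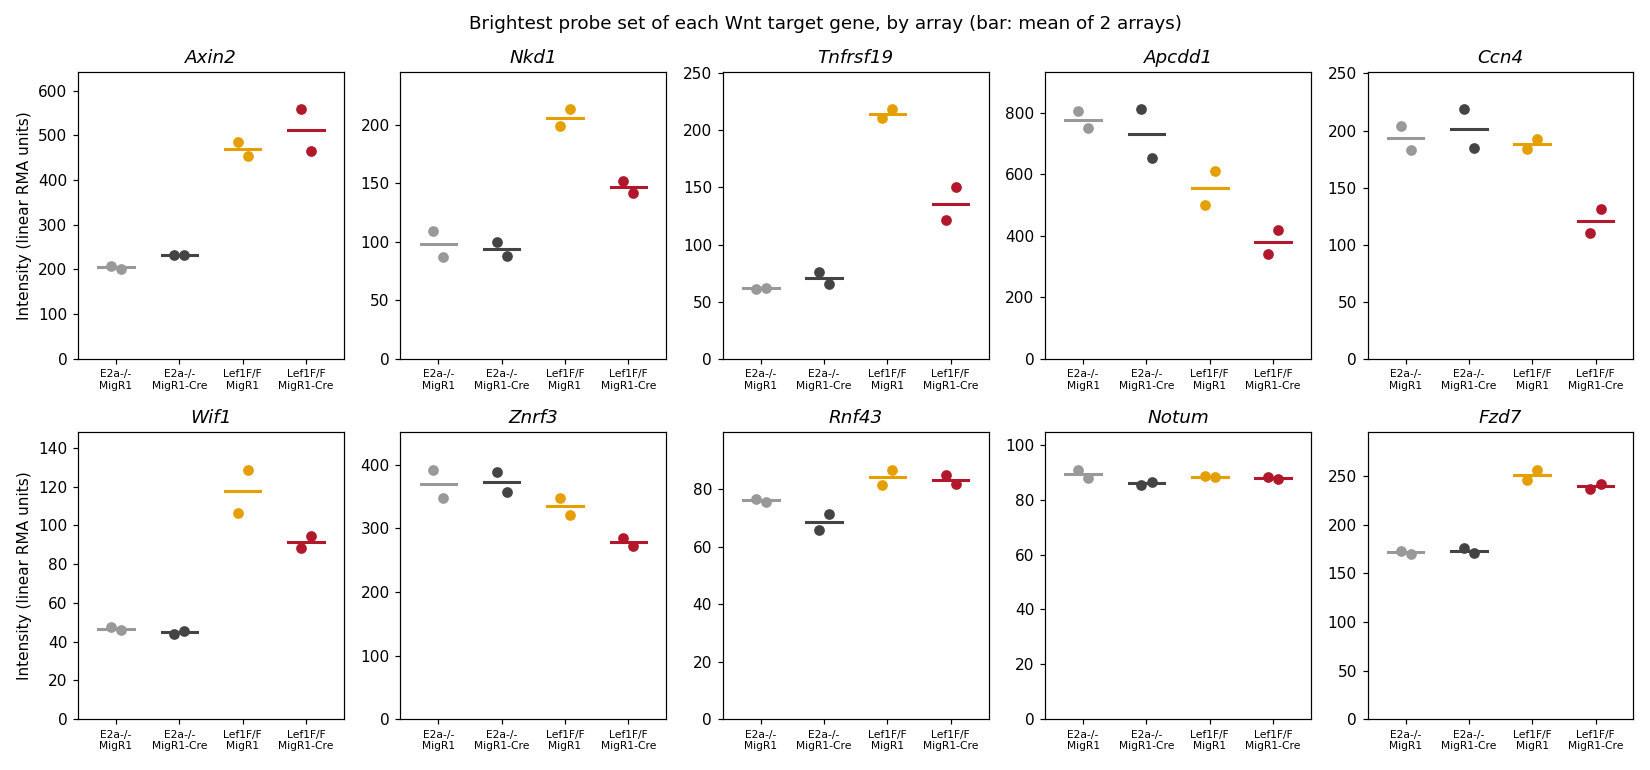
Intensity of the brightest probe set of each of the 10 genes (RMA, linear scale, each axis starting at 0) by group, with 1 point for each array and a bar at the mean. The mean of Tnfrsf19 was 214 with MigR1 and 136 with MigR1-Cre in the Lef1F/F line, and 61.6 and 70.9 in the E2a-/- line. Axin2 had means of 469 and 512 against 204 and 232.

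The first comparison asked whether these genes differ with Cre in the cells that can lose LEF1, 72 h after infection. Ccn4 fell, by 2-fold at its dimmer probe set, and was the only member past the threshold, an adjusted p of 0.05 from limma with Benjamini-Hochberg adjustment over all probe sets. Tnfrsf19, Apcdd1, Nkd1, Wif1 and Znrf3 had lower means after MigR1-Cre, with log2 differences from -0.67 to -0.26 that did not pass. Axin2, the gene most often used as a readout of canonical Wnt signalling, had a slightly higher mean. In all, 1 of 24 probe sets passed downward and 0 upward, where 0.127% and 0.04% of all probe sets did, and taking only the brightest probe set per gene, 0 of 10 passed. Without the adjustment, 6 of these 10 had p under 0.05 in the downward direction, against 2.69% of all probe sets. The 2 arrays with MigR1-Cre lay below both MigR1 arrays for 8 of 10 genes, where 13.7% of all probe sets did so, and above them for 0 of 10, where 15.4% did. This count takes in differences as small as -0.01, for Notum. Of all 24 member probe sets, 16 lay below and 0 above. The median log2 difference was -0.31 over the brightest probe sets of the 10 genes and -0.15 over all 24 member probe sets. That of all probe sets was 0. Of 7 natural killer and innate lymphoid markers 1 passed downward, Rora, a nuclear receptor gene, at 169 and 203 with MigR1 and 110.2 and 119 with MigR1-Cre (-0.70 ± 0.09, adjusted p = 0.0455). The summed intensity of these 7 was 2048 to 2264 and 1659 to 2054, and the defining markers Ncr1, Nkg7 and Prf1 lay between 59.8 and 92.2 in all 8 arrays. Of the T cell, B cell, myeloid, erythroid and stromal lists, 0 markers passed. The part of other cell types in the members' values was not tested.

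Ccn4 carries the call. At the dimmer of its 2 probe sets, the Lef1F/F line had 119 and 155 with MigR1 but 64.7 and 71.2 with MigR1-Cre. The groups did not overlap. This probe set was above the mean intensities of the genes of unrelated tissues in only 2 of 8 arrays, 1 of them a Lef1F/F MigR1 array. No array exceeded the highest single value of those genes, 160, so its fold is measured close to background. The log2 difference was -1.0 ± 0.13 (SE, limma adjusted p = 0.0452), and within the array pairs it was -0.88 and -1.12. With the brighter probe set, MigR1 arrays gave 184 and 193 and MigR1-Cre arrays 110 and 131, again with no overlap. It gave -0.64 ± 0.11 and did not pass (adjusted p = 0.139), so the probe sets shared a direction but not a call. The call was close to the threshold, at rank 72 of the 75 probe sets called. Over 17 alternative settings it passed in 5, with adjusted p from 0.000193 to 0.61, and of the 8 fits that each left out an array it passed only in the fit without Lef1F/F MigR1 array 1 (adjusted p = 0.0347).

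Tnfrsf19 had the largest log2 difference among the brightest probe sets. The Lef1F/F arrays gave 210.5 and 218 with MigR1 but 121 and 150.3 with MigR1-Cre. Both Cre arrays were thus below both controls, by 0.80 and 0.54 on the log2 scale within the array pairs. The difference was -0.67 ± 0.11 and did not pass (adjusted p = 0.117). The other Tnfrsf19 probe sets were dim, between 57.3 and 93.5 in this line, and gave -0.09 ± 0.07 and 0.01 ± 0.07. Since Tnfrsf19 and Wif1 passed with the largest differences between the lines (below) and had lower values in the Lef1F/F Cre arrays, the bases upstream of their annotated starts are shown, as held by RefSeq for GRCm38.p6. They are read 5′ to 3′ on the gene's strand, with capitals for letters that TCF/LEF proteins are known to bind. Tnfrsf19 has 2 annotated starts, and the positions are chr14:61046856-61047105 and chr14:61037988-61038237 on the minus strand, the latter inside the gene, and chr10:121033754-121034003 on the plus strand for Wif1.
Tnfrsf19, upstream start: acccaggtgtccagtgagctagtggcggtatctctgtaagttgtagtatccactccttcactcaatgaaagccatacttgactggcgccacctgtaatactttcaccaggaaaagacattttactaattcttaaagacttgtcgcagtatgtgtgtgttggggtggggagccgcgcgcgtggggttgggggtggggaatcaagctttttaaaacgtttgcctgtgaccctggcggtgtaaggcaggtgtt
Tnfrsf19, downstream start: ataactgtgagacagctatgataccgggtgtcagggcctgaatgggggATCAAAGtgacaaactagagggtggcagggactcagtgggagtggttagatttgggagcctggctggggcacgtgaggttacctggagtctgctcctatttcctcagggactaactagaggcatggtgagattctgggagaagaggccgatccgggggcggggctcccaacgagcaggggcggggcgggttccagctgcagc
Wif1: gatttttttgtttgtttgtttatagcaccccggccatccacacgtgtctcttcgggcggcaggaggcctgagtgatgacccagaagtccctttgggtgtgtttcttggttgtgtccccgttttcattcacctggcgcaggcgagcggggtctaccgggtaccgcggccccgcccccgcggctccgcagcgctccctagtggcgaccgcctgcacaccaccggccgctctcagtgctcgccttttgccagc
The letters CTTTGAT and CTTTGAA were searched on both strands in windows of 300 bases, 250 before and 50 after each start, for the 6 members found in the table (Axin2, Nkd1, Tnfrsf19, Wif1, Rnf43 and Fzd7). Of their 8 windows, 1 held a match, the CTTTGAT on the opposite strand at the downstream Tnfrsf19 start. Of all 32851 windows in the table, 3.73% held CTTTGAT, 5.14% held CTTTGAA and 8.65% held either. A match is a description of the letters and says nothing about binding in these cells.

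The feedback genes that act inside the cell are Axin2 and Nkd1. In the Lef1F/F line, Axin2 had 484 and 454 with MigR1 and 558 and 465 with MigR1-Cre, so the arrays of the vectors overlapped. The log2 difference was 0.12 ± 0.09, with a 95% interval from -0.09 to 0.33. A fall of Axin2 by more than 0.09 on the log2 scale therefore lay outside the interval in these arrays. The interval rests on 1 spread for all groups, while replicates of this line differed more than those of the E2a-/- line, so it may be too narrow. Set against the Cre difference in the E2a-/- line (below), the interval for Axin2 ran from -0.36 to 0.23. The other Axin2 probe set was dim in every array, between 60.5 and 65.7. Nkd1 had 199 and 213 with MigR1 but 152 and 141 with MigR1-Cre at its brightest probe set, with no overlap. Its log2 difference was -0.49 ± 0.11 (adjusted p = 0.354), and the array pairs gave -0.39 and -0.59. Its other 3 probe sets lay between 75.5 and 122 in this line and gave -0.06 to -0.17.

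Of the ubiquitin ligases that clear Frizzled receptors, Znrf3 had 348.5 and 321 with MigR1 but 286 and 272 with MigR1-Cre, a log2 difference of -0.26 ± 0.08 that did not pass (adjusted p = 0.753). Its dimmer probe set gave -0.23 ± 0.09, and both showed no overlap. Rnf43 stood at 81.4 and 86.9 with MigR1 and at 85.1 and 81.7 with MigR1-Cre, a level within the range of the genes of unrelated tissues. Its log2 difference was -0.01 ± 0.07, with a 95% interval from -0.17 to 0.14. Fzd7, a receptor of the family these ligases act on, had 246 and 257 with MigR1, and 237 and 242 when Cre was added to the vector. The Fzd7 arrays did not overlap, but the log2 difference was -0.07 ± 0.06, with an interval from -0.20 to 0.06.

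Of the inhibitors that act outside the cell or at its surface, Apcdd1 had the most probe sets, 6. Its brightest is of a kind that can match several transcripts. At the brightest, the Lef1F/F arrays had 499 and 610.2 with MigR1 but 340.3 and 419 with MigR1-Cre. The MigR1-Cre arrays were the lowest 2 of all 8. The log2 difference was -0.55 ± 0.14 (adjusted p = 0.527), and both array pairs gave about the same value, -0.55 and -0.54. The 3 next probe sets with no overlap gave -0.40, -0.35 and -0.43, and the other 2, of which 1 was dim, gave -0.09 and -0.02. Wif1 stood at 106 and 129 with MigR1 and at 88.4 and 94.4 with MigR1-Cre, with no overlap and a log2 difference of -0.36 ± 0.09 (adjusted p = 0.507). Notum stayed between 87.8 and 88.6 in the 4 Lef1F/F arrays, within the range of the genes of unrelated tissues, and gave -0.01 ± 0.06.

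**Figure D2:**
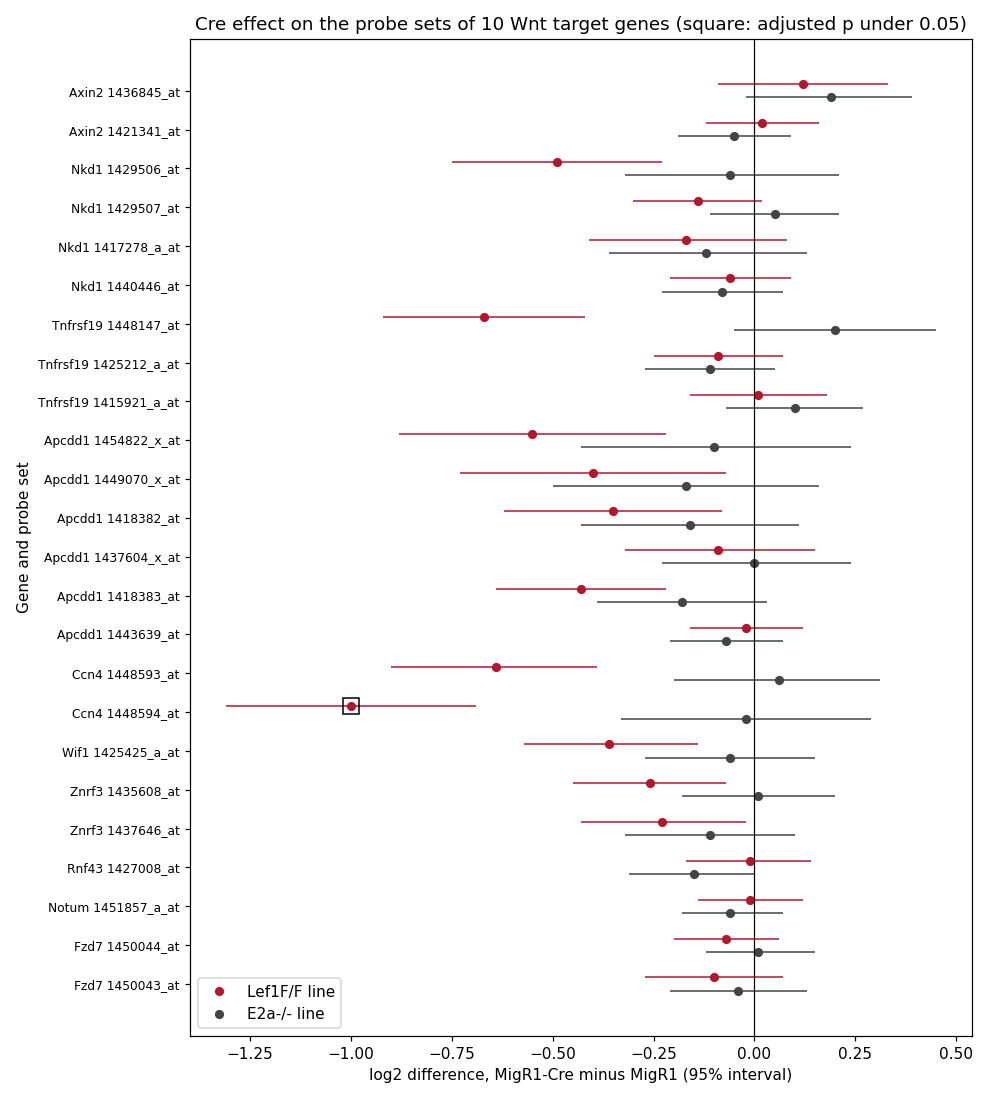
Log2 difference of MigR1-Cre minus MigR1 with its 95% interval (horizontal axis) for the 24 probe sets of the 10 genes, in the Lef1F/F line (red) and the E2a-/- line (grey). The square marks the 1 probe set past the threshold, of Ccn4 at -1.0, and the brightest Axin2 probe set lies at 0.12 and 0.19 in the lines.

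The same comparison in the E2a-/- line measured what went with Cre in cells whose Lef1 cannot be recombined. Of the 24 member probe sets 0 passed, and 0% of all probe sets did with limma, where 1.86% had an unadjusted p under 0.05. At the brightest probe sets of the 10 genes, 0 had an unadjusted p under 0.05, and their median log2 difference was -0.02. Ccn4 had 141 and 136 with MigR1 and 150 and 124 with MigR1-Cre at its dimmer probe set. These arrays overlapped, and the log2 difference was -0.02 ± 0.13. Tnfrsf19 was dim, at 61.5 and 61.8 with MigR1 and 76.0 and 65.8 with MigR1-Cre, and gave 0.20 ± 0.11. Apcdd1 had 805 and 750.1 with MigR1 and 811 and 651 with MigR1-Cre, a difference of -0.10 ± 0.14 with overlap. Axin2 had 209 and 200.1 with MigR1 and 233 and 232 with MigR1-Cre, with both Cre arrays above both controls, and gave 0.19 ± 0.09 (adjusted p = 1). Nkd1, Wif1, Znrf3, Rnf43, Notum and Fzd7 gave values between -0.15 and 0.01. The Cre arrays lay below the controls for 3 of 10 genes and above for 2, where 15.2% and 16.2% of all probe sets did. Of all 24 member probe sets, 6 lay below and 3 above. The replicate arrays of this line were closer to each other, with an SD of the log2 difference between replicates of 0.107 and 0.119 against 0.182 and 0.185 in the Lef1F/F line, while the fit used 1 spread for all groups.

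The difference of the 2 log2 differences, Lef1F/F minus E2a-/-, tested whether Cre acted unequally in the lines. Of the 24 member probe sets 0 passed, while 0.02% of all probe sets did. The largest values were at the dimmer Ccn4 probe set, -0.98 ± 0.19 (limma adjusted p = 0.485), and at Tnfrsf19, -0.87 ± 0.15 (adjusted p = 0.349). The brighter Ccn4 probe set gave -0.70 ± 0.16 (adjusted p = 0.784). Their 95% intervals ran from -1.41 to -0.54, from -1.22 to -0.51 and from -1.06 to -0.34. At the brightest probe sets, 4 of 10 genes had an unadjusted p under 0.05, those of Tnfrsf19, Ccn4, Nkd1 and Znrf3, all lower in the Lef1F/F line, against 1.86% of all probe sets in that direction. Nkd1 gave -0.44, Apcdd1 -0.45, Wif1 -0.30 and Znrf3 -0.28. Axin2 gave -0.07 ± 0.13, with an interval from -0.36 to 0.23. Tnfrsf19 and Wif1 were already dim in the E2a-/- line, and so was Nkd1, at 87.1 to 109. A fall would be hard to see there, which limits the comparison of these genes between lines.

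The lines themselves differed more than the vectors did. In the MigR1 arrays, Axin2, Nkd1, Tnfrsf19, Wif1 and Fzd7 were higher in the Lef1F/F line at their brightest probe sets, by 1.46-fold to 3.48-fold, and Apcdd1 was lower at 2 of its 6 probe sets. With limma, 5 of 10 genes passed upward, where 6.06% of all probe sets did, and 0 of 10 passed downward at the brightest probe set, where 4.67% did. Over all 24 member probe sets, the unit in which these shares are counted, 5 passed upward and 2 downward. With a mean over each gene's probe sets, 16.4% of 18193 genes passed in either direction. By that measure 5 of the 10 genes passed upward and 1 downward. The median log2 difference was 0.35 over the brightest probe sets of the 10 genes and 0.03 over all 24 member probe sets. That of all probe sets was -0.01.

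Tnfrsf19 showed the largest of these differences. It had 61.5 and 61.8 in the E2a-/- MigR1 arrays and 210.5 and 218 in the Lef1F/F MigR1 arrays, a log2 difference of 1.80 ± 0.11 (adjusted p = 2.63e-05). Its other probe sets gave 0.25 ± 0.07 (adjusted p = 0.0536) and 0.06 ± 0.07, so the call rests on 1 of 3. Tnfrsf19 lies on chromosome 14, where the median log2 difference between the lines was 0.42 over 458 probe sets above 180 and 91.7% of them were higher in the Lef1F/F line, against -0.01 and 47.7% over all chromosomes. The part of a different number of copies of chromosome 14 in the Tnfrsf19 value was not tested. The chromosomes of the other members had medians from -0.08 to 0.02.

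Wif1 stood at 47.5 and 45.9 in the E2a-/- MigR1 arrays and at 106 and 129 in those of the Lef1F/F line, a difference of 1.32 ± 0.09 (adjusted p = 6.07e-05). Although both levels are within the range of the genes of unrelated tissues, all 4 Lef1F/F arrays lay above all 4 E2a-/- arrays. Axin2 had 209 and 200.1 in the E2a-/- line and 484 and 454 in the Lef1F/F line, a 2.29-fold difference (log2 SE 0.09, adjusted p = 8.81e-05), and again the 8 arrays fell apart by line. Nkd1 was at 109 and 87.1 against 199 and 213, a difference of 1.08 ± 0.11 (adjusted p = 0.00057), and its other 3 probe sets did not pass, at -0.01 to 0.21. Fzd7 was at 173 and 170.5 against 246 and 257, a difference of 0.55 ± 0.06 (adjusted p = 0.000555), with 0.15 ± 0.07 at its dim probe set. For these 5 genes and for Rnf43, all Lef1F/F arrays, with Cre or without, were above all E2a-/- arrays, where 11.5% of all probe sets showed that pattern.

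**Figure D3:**
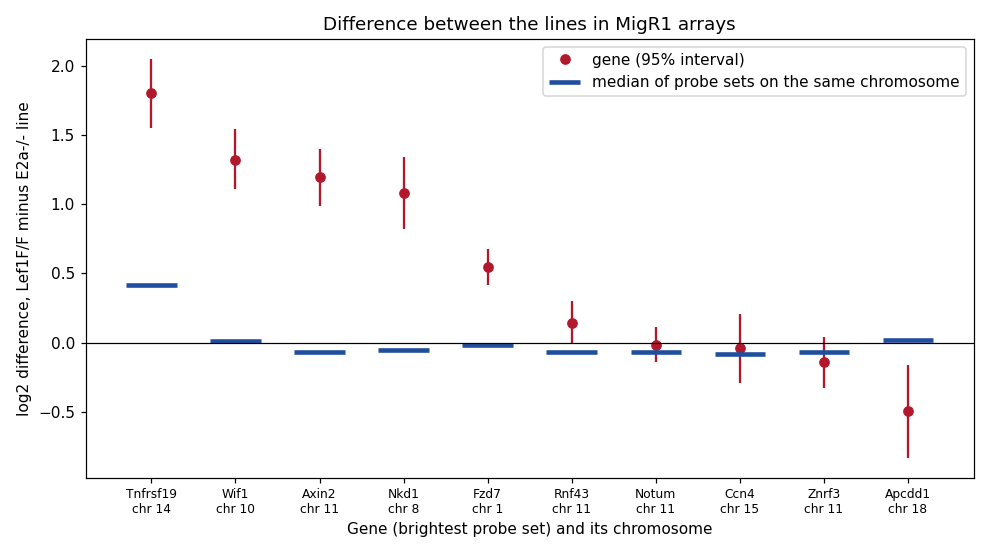
Log2 difference of the Lef1F/F minus the E2a-/- line in MigR1 arrays for the brightest probe set of each gene, with its 95% interval (red), beside the median over probe sets above 180 on the same chromosome (blue bars). Tnfrsf19 at 1.80 lies above the chromosome 14 median of 0.42, and Apcdd1 lies lowest, at -0.49.

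Apcdd1 ran the other way. Its brightest probe set had 805 and 750.1 in the E2a-/- MigR1 arrays and 499 and 610.2 in those of the Lef1F/F line, a difference of -0.49 ± 0.14 that did not pass (adjusted p = 0.0719). It did pass at the third brightest (-0.58 ± 0.12, adjusted p = 0.0169) and the fifth brightest (-0.39 ± 0.09, adjusted p = 0.0313). Without any 1 of the 4 MigR1 arrays, the lone array of its group being assumed to vary like the others, both of these calls were lost, with adjusted p up to 0.134 and 0.18. At the brightest probe sets of Apcdd1 and Znrf3, all 4 Lef1F/F arrays lay below all 4 E2a-/- arrays, as they did for 13.6% of all probe sets. Among markers of stromal, endothelial and epithelial cells, Col1a2 moved the same way as Apcdd1 between the lines. So did Il7r (-1.51 ± 0.13) and Rora (-0.83 ± 0.09) among 7 natural killer and innate lymphoid markers, and Tfrc (-0.81 ± 0.08), the transferrin receptor gene, among 5 erythroid markers, with 0 upward in either list. Their sums were 2383 to 2594 and 7252 to 7904 in the E2a-/- arrays, and 1659 to 2264 and 4056 to 4760 in the Lef1F/F arrays. The erythroid markers Klf1, Alas2 and Slc4a1 lay between 56.2 and 98.0 in all 8. Of 9 T cell markers 4 passed upward, Cd2 (1.22), Cd3g (0.46), Notch1 (0.42) and Cd3e (0.32), and 2 downward, Ptprc (-0.30) and Ptcra (-0.36). Col1a2, a collagen chain made by fibroblasts, stood between 4131 and 4377 in the E2a-/- arrays and between 252 and 311 in the Lef1F/F arrays. The summed intensity of the 13 markers was 5291 to 5529 and 1493 to 1596, with Col1a2 making most of the gap. Of the 13, Col1a2 passed downward and the pericyte marker Pdgfrb upward (0.72 ± 0.12), while the fibroblast markers Col1a1, Col3a1 and Dcn lay between 45.4 and 93.5 in all 8 arrays. The part of other cell types in the Apcdd1 value was not tested. Ccn4 did not separate the lines in MigR1 arrays, at -0.04 ± 0.11 and -0.03 ± 0.13, nor did Notum at -0.02 ± 0.06. Znrf3 gave -0.14 ± 0.08 and Rnf43 0.14 ± 0.07, and neither passed.

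In the MigR1-Cre arrays, a comparison of the lines added after the data were seen, the differences of Tnfrsf19 and Nkd1 were smaller and those of Axin2 about as large. Tnfrsf19 gave 0.93 ± 0.11, Nkd1 0.64 ± 0.11, Wif1 1.03 ± 0.09, Axin2 1.13 ± 0.09 and Fzd7 0.47 ± 0.06, and all 5 still passed upward (limma adjusted p from 0.000133 to 0.00799). Ccn4, which did not separate the lines after MigR1, passed downward after MigR1-Cre at both probe sets, at -0.74 ± 0.11 and -1.01 ± 0.13 (adjusted p = 0.0036 and 0.00205). Apcdd1 passed downward at -0.94 ± 0.14 (adjusted p = 0.00406) and Znrf3 at -0.42 ± 0.08 (adjusted p = 0.0128), and Rnf43 passed upward at 0.28 ± 0.07 (adjusted p = 0.0314). Of all 45037 probe sets, 5403 passed in this comparison, counting both directions. Whether the line differences themselves changed with the vector is the same question as the difference of the Cre effects, where 0 of 24 probe sets passed.

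The levels of each gene over the 4 groups can be put in order. For Tnfrsf19, Nkd1 and Wif1 the order ran from the Lef1F/F line with MigR1 through the Lef1F/F line with MigR1-Cre to both E2a-/- groups. For these genes, no difference between the Lef1F/F groups or between the E2a-/- groups passed. For Axin2 and Fzd7 the Lef1F/F groups came first, with no difference past the threshold between them, and the E2a-/- groups followed. For Apcdd1 both E2a-/- groups came first, overlapping each other, then the Lef1F/F line with MigR1 and last the Lef1F/F line with MigR1-Cre. Znrf3 had the same order, with no overlap between the lines, but its highest Lef1F/F and lowest E2a-/- arrays were equal to the printed decimal, at 348.5. At the brightest probe sets of Apcdd1 and Znrf3, neither the line difference in MigR1 arrays nor the Lef1F/F vector difference passed. For Ccn4 the first 3 groups overlapped between 183 and 219 at the brighter probe set, and only the Lef1F/F line with MigR1-Cre lay apart, at 110 and 131. Its difference from the Lef1F/F MigR1 group did not pass at this probe set. Rnf43 and Notum lay between 65.8 and 91.1 in all groups.

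The rest of the pathway was described from lists by role, each gene at its brightest probe set. After Cre in the Lef1F/F line, Lef1 itself fell (-1.87 ± 0.09, limma adjusted p = 0.000703), and it was the only gene of the pathway lists that passed. Of 21 genes for Wnt ligands and their secretion 0 passed, and the smallest p-values belonged to Wnt8b (0.35 ± 0.06, adjusted p = 0.184) and Wnt5b (-0.23 ± 0.08). Of 14 receptors and coreceptors 0 passed, with Fzd8 at 0.20 ± 0.07 and Fzd5 at -0.41 ± 0.13. Of 7 R-spondins and their receptors 0 passed, with the R-spondin receptors Lgr5 at 0.10 ± 0.07 and Lgr4 at -0.08 ± 0.06. Of 12 secreted and membrane antagonists 0 passed, with Sfrp5 at -0.11 ± 0.07 and Kremen1 at -0.13 ± 0.09. In the cytoplasmic part of the pathway 0 of 15 passed, with the kinase gene Gsk3a at -0.13 ± 0.06 and the ubiquitin ligase gene Btrc at 0.22 ± 0.10. Of 15 nuclear effectors only Lef1 passed, and the Groucho family member Tle5 gave -0.19 ± 0.07. Tcf7, the gene for TCF1, had no probe set assigned to it alone and so has no value here. Of 27 other reported targets, a list that holds Lef1 as well, the G1 cyclin Ccnd1 gave -0.35 ± 0.07 (adjusted p = 0.254). The list medians lay between -0.02 and 0.03, beside -0.31 for the 10 target genes and 0 for all probe sets. In the E2a-/- line 0 genes of these lists passed, with limma as above.

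Between the lines in MigR1 arrays, several pathway genes differed. Wls, which carries Wnt proteins to the surface, had 45.1 and 46.1 in the Lef1F/F line against 785 and 783, a log2 difference of -4.10 ± 0.09 (limma adjusted p = 1.33e-07). Wnt8b was higher by 0.25. The receptor Ror2 was lower (-1.40 ± 0.08), as was Fzd4 (-0.30), and the coreceptor Lrp6 was higher (0.47 ± 0.06). Of the nuclear effectors 4 of 15 were higher and 0 lower. They were Lef1 (0.97 ± 0.09), the corepressor gene Tle3 (0.47 ± 0.07), the Groucho family member Tle5 (0.31 ± 0.07) and Ctnnb1, the gene for beta-catenin (0.34 ± 0.07). Of the other reported targets 3 of 27 were higher and 4 lower. Besides Lef1, Enc1 (1.45 ± 0.07) and Tiam1 (0.26 ± 0.07) were higher, and Bambi (-1.86 ± 0.09), Id2 (-0.75 ± 0.13), Ccnd1 (-0.67 ± 0.07) and Prickle1 (-0.38 ± 0.08) were lower. In the cytoplasmic list Dvl1 was higher (0.27) and the other 14 of 15 did not pass. No R-spondin, R-spondin receptor or antagonist passed.

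For the 7 members with a group mean above 180, the probe sets of other genes whose log2 values ran most alike over the 8 arrays were listed, among 12650 probe sets with a mean above 180. With so many candidates and arrays that fall apart by line, high correlations are found for most patterns, so they are given as descriptions. Axin2 ran most like Ndst2, Grk6 and Ppm1l (Pearson r from 0.995 to 0.996), and Fzd7 like Hsd17b11, Rcbtb1 and Arf4 (0.998 to 0.999). Tnfrsf19 ran like Dpp4, Ublcp1 and Lztfl1 (0.994 to 0.997), and Nkd1 like 2810459M11Rik, Dram2 and Cdc25a (0.982 to 0.983). Apcdd1 was most like Ppm1h, Pikfyve and Rpn1 (0.984 to 0.987), Ccn4 like Elavl4, Stambpl1 and Rnf166 (0.974 to 0.981), and Znrf3 like Npnt, Ndufa10 and Avpi1 (0.976 to 0.990).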

How the data were processed

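Total RNA from 8 samples was hybridised to Affymetrix mouse expression arrays by the authors, who normalised the scans with RMAExpress. The deposited intensity of each probe set is on a linear scale after RMA, without pooling of replicates. Log2 was taken here with no offset. Gene names came from the platform annotation, with 34945 of 45037 probe sets naming 1 gene, and were updated by gene ID to GRCm38.p6. Probe sets were found for 196 of 207 list entries.

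Groups came from sample titles, and arrays were numbered in record order. Limma 3.58.1 in R 4.3.3 fitted 4 group means to all 8 arrays (4 residual and 3.99 prior degrees of freedom). P-values are two-sided with Benjamini-Hochberg adjustment over 45037 probe sets and a threshold of 0.05. The study's dChip comparison was not used here. The fit was tested on simulated data with independent noise of equal spread in all groups. Array pairs and the larger spread of the Lef1F/F line were not simulated. The text names all members, list genes past the threshold (in general at most 4 for each list), and for pathway lists otherwise the 2 with the smallest p in the Lef1F/F Cre comparison. Members and lists were chosen with earlier results of these data known.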

Additional observations from a re-analysis of the deposited data

How the results depend on the processing

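Of the 10 genes, the 5 called higher in the Lef1F/F line at the brightest probe set were also 5 in each fit that left out 1 array. Left out were Wif1 from the fit without dim probe sets (under the 40th percentile of intensity), Wif1 and Notum from the fit without probe sets that match several transcripts, and the difference of the Cre effects from the fit on 4 arrays. Dim levels and 2 arrays in a group limit what can pass. Except where the setting itself shows it, the cause of a change was not tested.

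For Cre in the Lef1F/F line, the 75 probe sets called became 0 with only the 4 arrays compared, 46 with array weights and 20 to 33 with an array left out. The fit on 4 arrays has fewer samples and also leaves the E2a-/- arrays out of the spread. Which of these changed the count was not tested. The 1 member probe set called lower, of Ccn4, became 0 with dim probe sets left out, with only the 4 arrays compared, with repeated quantile normalization, with array weights and with an offset of 50, and 0 to 1 with an array left out, where the call was kept only without Lef1F/F MigR1 array 1. With a mean over each gene's probe sets, 1 of 10 genes passed downward, Ccn4. In the E2a-/- line the 0 probe sets called became 1 with only the 4 arrays compared. For the difference of the Cre effects, the 9 probe sets called became 5 with dim probe sets left out, 4 without probe sets that match several transcripts and 0 to 7 with an array left out. Between the lines, the 4829 probe sets called became 2980 genes with a mean over each gene's probe sets (16.4% of 18193 genes, beside 10.7% of all probe sets), 9219 with the mean of MigR1 and MigR1-Cre arrays and 2267 to 5396 with an array left out. The 0 genes called lower became 1, Apcdd1, with only the 4 arrays compared, with repeated quantile normalization, without probe sets that match several transcripts and with a mean over each gene's probe sets, and 0 to 1 with an array left out. They became 3, Apcdd1, Ccn4 and Znrf3, with the mean of MigR1 and MigR1-Cre arrays and with the MigR1-Cre arrays alone, which were added after seeing the data. With the MigR1-Cre arrays alone, 5403 of 45037 probe sets were called. The 2 member probe sets called lower became 4 with only the 4 arrays compared and with repeated quantile normalization, 7 with the mean of both vectors or the MigR1-Cre arrays alone, and 0 to 4 with an array left out.

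The replicate block of Lef1F/F array pairs (1 with 1, 2 with 2) rests on the correlations between arrays and not on the labels, whose array numbers follow record order. With this block, probe sets called after Cre in the Lef1F/F line rose to 345, with 4 of 10 genes (Tnfrsf19, limma adjusted p = 0.00213, Ccn4, 0.00435, Apcdd1, 0.0161, and Wif1, 0.0313) and 6 member probe sets lower. Under the same pairing 1 probe set was called in the E2a-/- line. For the difference of the Cre effects the block gave 86 probe sets, with 1 gene (Tnfrsf19, adjusted p = 0.0103) and 2 member probe sets lower. Between the lines the block gave 9595 probe sets, with 1 gene (Apcdd1) and 4 member probe sets lower.

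Log2 differences that changed sign were small and not called. With an array left out, Axin2 ranged from -0.01 to 0.25 and Rnf43 from -0.06 to 0.04 after Cre in the Lef1F/F line. In the E2a-/- line Nkd1 ranged from -0.22 to 0.11, Apcdd1 from -0.26 to 0.06, Ccn4 from -0.06 to 0.18, Znrf3 from -0.07 to 0.10 and Fzd7 from 0 to 0.03. The difference of the Cre effects ranged from -0.20 to 0.07 for Axin2, and the line difference from -0.12 to 0.04 for Ccn4 and from -0.04 to 0.01 for Notum. With a mean over each gene's probe sets, Znrf3 gave -0.05 and Fzd7 -0.01 in the E2a-/- line, and the difference of the Cre effects was 0 for Axin2. Notum gave a line difference of 0.01 with the mean of MigR1 and MigR1-Cre arrays and 0.03 with the MigR1-Cre arrays alone.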
